A study of Mus musculus with 2 samples.

Results

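The calcium and NFAT pathway was followed through 10 genes of the newborn mouse thymus: the IP3 receptors Itpr1, Itpr2 and Itpr3, the calcium sensor Stim1, the channel Orai1, the calcineurin subunit Ppp3ca, the transcription factors Nfatc1, Nfatc2 and Nfatc3, and the calcineurin inhibitor Rcan1. They were taken by name, by GENCODE M21 symbol matched on the gene identifier, and all 10 were found among the 43346 genes of both deposited gene tables. Total RNA had been sequenced from both thymus lobes of 2 pups of strain B6NCrl at postnatal day 0, littermates from 1 pregnant female, with 1 library per pup. The pups are called replicate 2 and replicate 1, as the labels number them. They carried no named allele and received no named agent, and their sex was not recorded, so the libraries form 1 group and no test between conditions was possible. The labels give both the same donor identifier, although they describe different pups, and that the animals are separate rests on that description.

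In a T cell, engagement of the antigen receptor activates phospholipase C, and the IP3 it makes opens IP3 receptors in the endoplasmic reticulum. The fall of stored calcium is sensed by STIM proteins, which open ORAI channels in the plasma membrane, and the calcium that enters activates calmodulin and the phosphatase calcineurin. Calcineurin removes phosphates from NFAT proteins, which then move into the nucleus, and in the thymus this route is known for its part in the selection of developing T cells.

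Levels are given in TPM, which divides reads by transcript length and scales each library alike, and in expected counts, the authors' estimate of the reads of a gene. The libraries held 41576378 expected counts over genes in replicate 2 and 39045711 in replicate 1. Thymocyte markers (Lck, Cd3d, Cd3e, Cd8a, Rag1 and Cd4) were detected in 6 of 6 cases and summed to 2876 TPM in replicate 2 and 2855 in replicate 1. Epithelium markers, 5 of 5 detected, summed to 1283 TPM in replicate 2 and 1255 in replicate 1, with most of the sum from the keratin Krt8 at 1002 ± 6.33 TPM. The tissue is a mixture, and fewer cells of a type cannot be told apart from less RNA per cell.

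All 10 genes reached the detection threshold, a TPM of 1 in each library, against a background of 32.2% of all 43346 genes. Their median of 16.9 TPM stood beside 15 TPM over all detected genes. By mean TPM the order was Itpr2, Stim1, Nfatc1, Rcan1, Ppp3ca, Nfatc3, Orai1, Itpr1, Itpr3 and Nfatc2. The values of neighbours in this order overlapped between the pups for 2 pairs, Ppp3ca with Nfatc3 and Nfatc3 with Orai1, and for no other pair. Counting only transcripts annotated as protein coding, Itpr2 moved to place 7, and the overlapping neighbours were Ppp3ca with Nfatc3 and Orai1 with Itpr2.

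**Figure D1:**
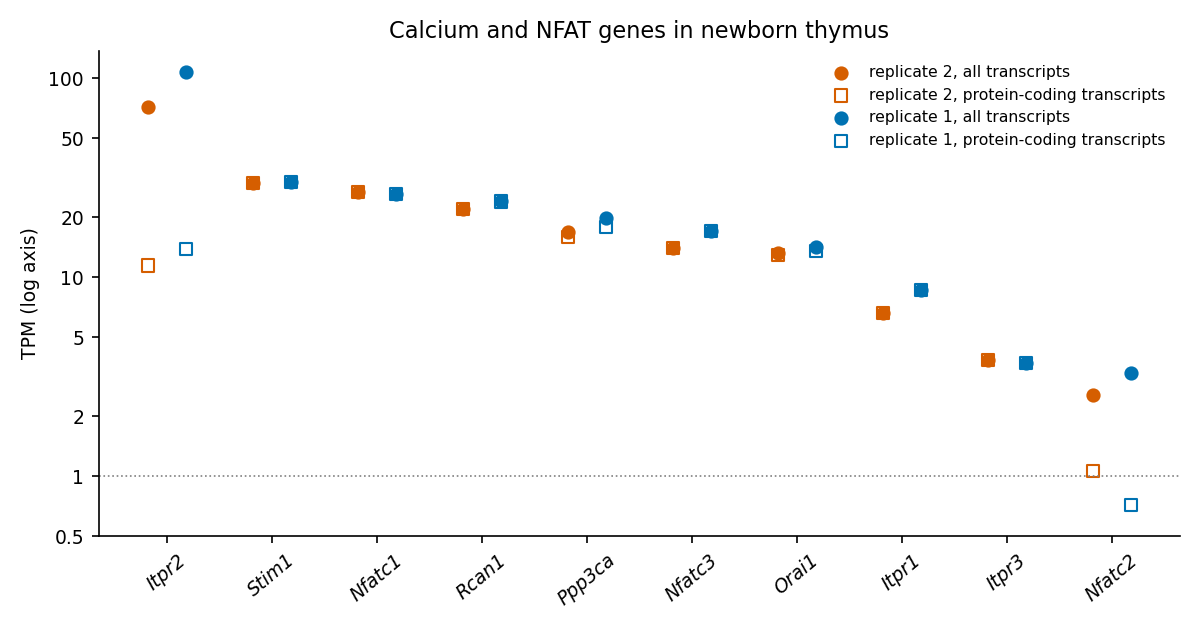
TPM (log axis) of the 10 genes in replicate 2 (orange) and replicate 1 (blue), over all transcripts (filled circles) and over protein-coding transcripts (open squares); the dotted line marks the detection threshold of 1 TPM. Itpr2 fell to place 7 and Nfatc2 to 1.06 TPM in replicate 2 and 0.72 in replicate 1 when only coding transcripts were counted, while the others kept nearly the same level.

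The IP3 receptors form the release step. Itpr2 (ENSMUSG00000030287.11) lies on the minus strand of chromosome 6, from 146108299 to 146502223 in GRCm38, and encodes the type of IP3 receptor known for its high affinity for IP3. Its level was 71.9 TPM in replicate 2 and 107 in replicate 1, a mean of 89.5 ± 24.9 TPM (SD, n = 2), from 7615 expected counts in replicate 2 and 9716 in replicate 1. This was the highest of the 10 genes in both pups. Itpr1 (ENSMUSG00000030102.8; chromosome 6, 108213096 to 108551109, plus strand), the receptor best known from Purkinje neurons of the cerebellum, had 6.59 TPM in replicate 2 and 8.63 in replicate 1. Itpr3 (ENSMUSG00000042644.8; chromosome 17, 27057304 to 27122223, plus strand), the third receptor of the family, had 3.85 TPM in replicate 2 and 3.69 in replicate 1. Of the family's TPM, Itpr2 held 88.5% ± 1.67, Itpr1 7.61% ± 0.547 and Itpr3 3.88% ± 1.12 (SD, n = 2 each).

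Most of the Itpr2 level was assigned to short transcripts that begin at the 5′ end of the gene. These were Itpr2-203, a processed transcript of 582 nt, Itpr2-206, annotated as a target of nonsense-mediated decay with 2834 nt and a reading frame of 79 codons, and Itpr2-208, annotated with a retained intron and 2464 nt. Their first bases lie within 345 bases of each other, and they end 80805, 129100 and 120089 bases from the most upstream start, in a gene whose last base is at 393924. The full-length mRNA Itpr2-201 has 57 exons, 11699 nt and 2701 codons.

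Together the 3 short forms had 60.3 TPM in replicate 2 and 92.2 in replicate 1, or 84.9% ± 1.62 of the gene's TPM. The full-length coding forms Itpr2-201 and Itpr2-202 had 11.4 TPM in replicate 2 and 13.8 in replicate 1, or 14.4% ± 2.15 of it. In reads the weights were different: the full-length forms held 52.0% of the expected counts and the short forms 47.9%. Because TPM divides reads by length, the same reads of a short form weigh more there than those of the full-length mRNA. On coding transcripts alone, the receptor family came to 52.6% ± 0.423 for Itpr2, 31.5% ± 2.04 for Itpr1 and 15.8% ± 2.46 for Itpr3.

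Itpr2 and Nfatc2 were the 2 of the 10 genes whose coding transcripts held under 50% of their TPM. Among 7123 detected genes annotated with both coding and other transcripts, 4 of the 10 genes with them, the median coding share was 88.8%, and 13.6% lay below 50%. The share of reads given to each form is the authors' estimate, since the 5′ exons are common to several forms. The deposited bounds on the level of Itpr2-208 were 12 to 16.3 TPM in replicate 2 and 24.7 to 30.1 TPM in replicate 1, and did not overlap between the pups. Those of Itpr2-203 were 19.1 to 27.5 TPM in replicate 2 and 26.3 to 37.1 TPM in replicate 1, and did overlap.

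**Figure D2:**
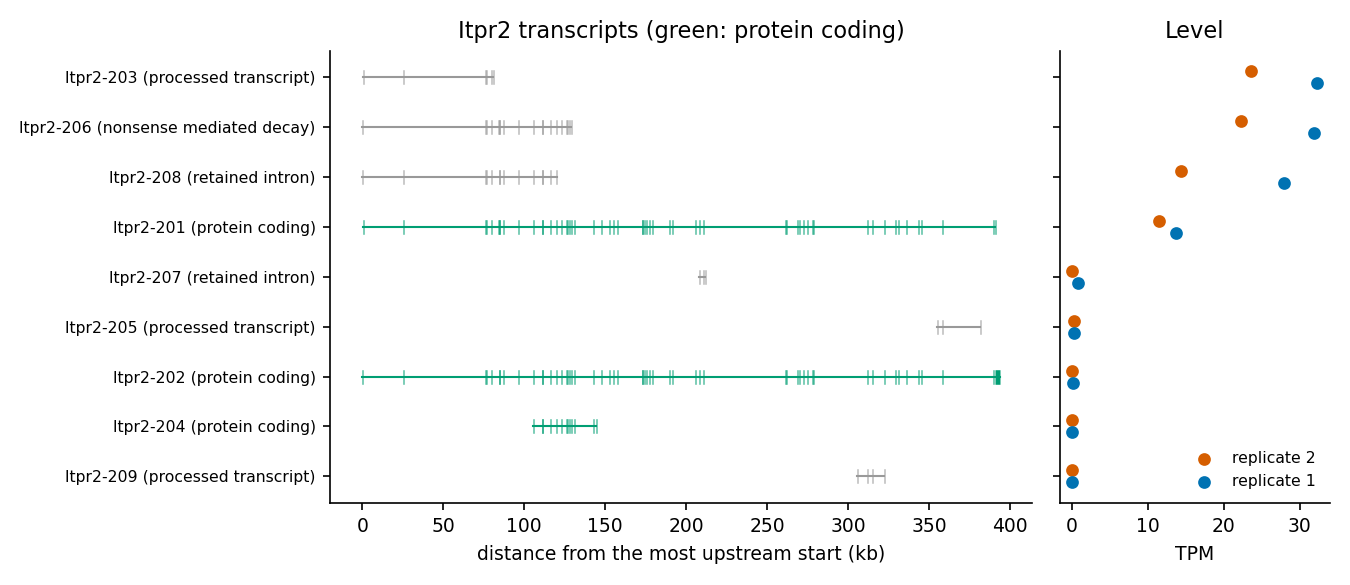
Left: the 9 annotated Itpr2 transcripts, with exons as vertical marks, against distance in kb from the most upstream start; coding transcripts are green and the others grey. Right: TPM of each in replicate 2 (orange) and replicate 1 (blue); the 3 short forms at the 5′ end stand above the full-length Itpr2-201 in both pups.

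Store-operated entry was carried at the gene level by Stim1 with Stim2 and by 3 channels. Stim1 (ENSMUSG00000030987.4; chromosome 7, 102267806 to 102437319, plus strand), the main sensor of calcium in the endoplasmic reticulum, had 29.7 TPM in replicate 2 and 30.0 in replicate 1, a mean of 29.9 ± 0.212. Its paralogue Stim2, known to respond to smaller falls of stored calcium, had 19.5 TPM in replicate 2 and 26.5 in replicate 1. Stim1 held 56.8% ± 5.12 of their sum. The pups were nearly level for Stim1, and its value lay above that of Stim2 in both.

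Orai1 (ENSMUSG00000049686.10; chromosome 5, 123015074 to 123030456, plus strand), the pore of the calcium release-activated channel, had 13.3 TPM in replicate 2 and 14.1 in replicate 1. Orai2, which can join Orai1 in the same channel, had 35.3 TPM in replicate 2 and 40.5 in replicate 1. Orai3 had 13.4 TPM in replicate 2 and 13.3 in replicate 1. The largest share of ORAI transcripts was therefore that of Orai2, 58.3% ± 1.85, beside 21.1% ± 0.459 for Orai1 and 20.6% ± 1.39 for Orai3. Orai1 and Orai3 could not be ordered, since Orai3 was the higher in replicate 2 and Orai1 in replicate 1. By expected counts, which are not divided by length, Orai1 held 11.3% of the family.

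Orai1 was split between Orai1-201 and Orai1-202, which both carry a reading frame of 304 codons. Orai1-201 took 51.3% ± 2.81 of the TPM and Orai1-202 45.6% ± 1.91. Their deposited bounds in replicate 2, 4.98 to 8.85 TPM and 4.36 to 7.39 TPM, overlapped, and so did those in replicate 1, so neither form was shown to be the higher.

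**Figure D3:**
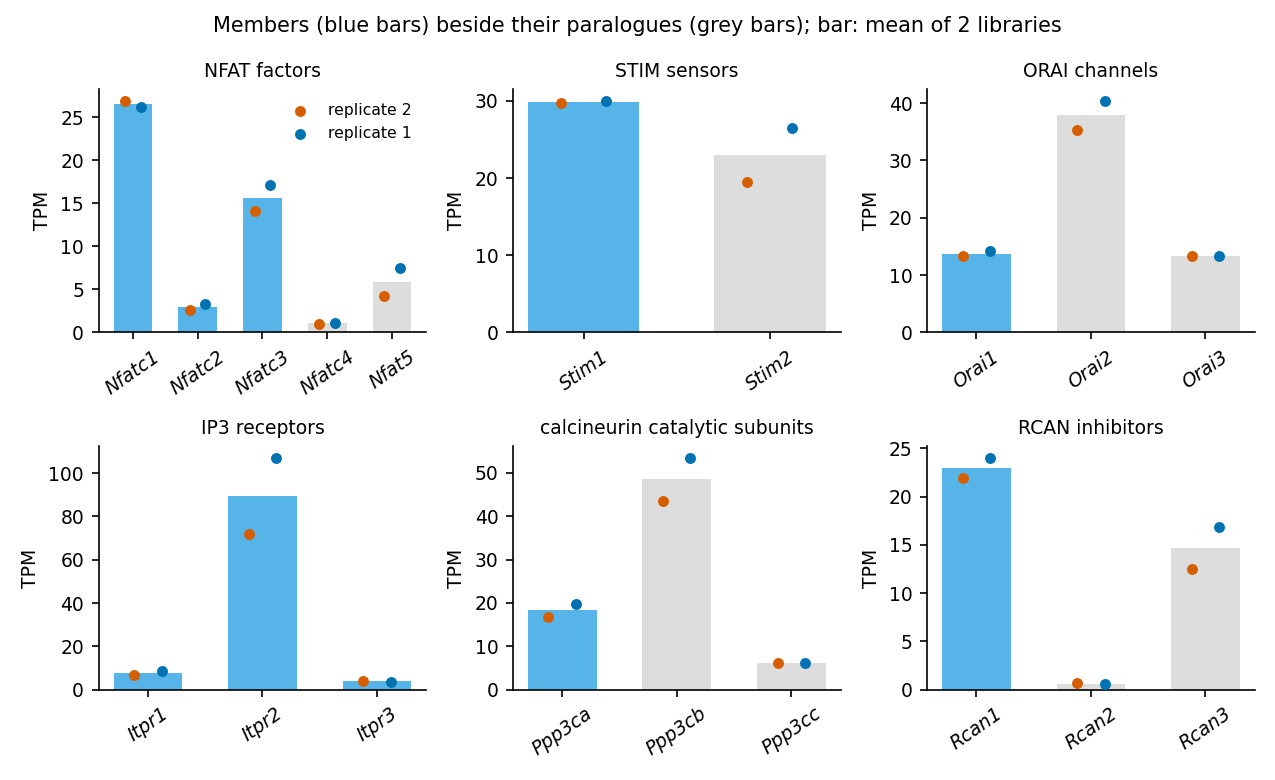
Mean TPM of each family (bars; blue for the 10 genes followed here, grey for their paralogues) with the values of replicate 2 (orange) and replicate 1 (blue points). Nfatc1, Stim1, Itpr2 and Rcan1 were the highest of their families in both pups, while Orai1 stood below Orai2 and Ppp3ca below Ppp3cb.

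Calcineurin is a catalytic A subunit joined to a regulatory B subunit. Ppp3ca (ENSMUSG00000028161.13; chromosome 3, 136670124 to 136937727, plus strand) encodes the alpha form of the catalytic subunit and had 16.9 TPM in replicate 2 and 19.8 in replicate 1, from 1795 expected counts in replicate 2 and 1830 in replicate 1. The beta form Ppp3cb, which is the form most tied to T cells in mouse knockouts, had 43.6 TPM in replicate 2 and 53.5 in replicate 1. Ppp3cc, the gamma form, had 6.12 TPM in replicate 2 and 6.07 in replicate 1. Ppp3ca thus held 25.1% ± 0.309 of the catalytic transcripts and Ppp3cb 66.5% ± 1.40. Of the regulatory subunits, Ppp3r1 had 105 TPM in replicate 2 and 119 in replicate 1. Ppp3r2, known from testis, had 0 counts in both libraries, and a count of 0 allows up to 3 counts per library, counting error only.

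Ppp3ca transcripts differed by a single small coding exon. Ppp3ca-201 (14 exons, 521 codons) holds it and Ppp3ca-202 (13 exons, 511 codons) does not; no other coding stretch separates them. The exon is shown because it is the whole coding difference between the main forms; it lies at chr3:136932011-136932040 on the plus strand of GRCm38 and reads, from GENCODE M21, as follows.
Ppp3ca-201 coding exon: ctactgttgaggctattgaggctgatgaag
The form without the exon took 49.7% ± 3.77 of the gene's TPM and the form with it 43.2% ± 1.08. In replicate 2 the deposited bounds were 7.92 to 9.29 TPM without the exon and 5.81 to 8.35 TPM with it, and in replicate 1 8.17 to 9.78 TPM without and 7.21 to 10.2 TPM with it. The bounds overlapped in both pups, so the order of the forms was not resolved. By reads the longer mRNA Ppp3ca-202 held 71.3% of the gene's expected counts.

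Among the NFAT factors Nfatc1 was the highest. Nfatc1 (ENSMUSG00000033016.11; chromosome 18, 80606205 to 80713071, minus strand), a factor with roles in early thymocytes and in heart valve formation, had 26.9 TPM in replicate 2 and 26.2 in replicate 1, a mean of 26.5 ± 0.537. Nfatc3 (ENSMUSG00000031902.9; chromosome 8, 106058840 to 106130537, plus strand), a factor strongly expressed in double-positive thymocytes, had 14.1 TPM in replicate 2 and 17.1 in replicate 1. Nfatc2 (ENSMUSG00000027544.12; chromosome 2, 168476410 to 168601657, minus strand), prominent in peripheral T cells, had 2.56 TPM in replicate 2 and 3.30 in replicate 1. The 3 genes did not overlap each other. Of the family's TPM, Nfatc1 held 51.3% ± 5.52, Nfatc3 29.9% ± 1.56 and Nfatc2 5.62% ± 0.516.

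The other two NFAT genes were lower than Nfatc3 in both pups. Nfat5, which responds to osmotic stress and lacks the calcineurin-binding part, had 4.21 TPM in replicate 2 and 7.46 in replicate 1, of which its coding transcripts held 2.36 TPM in replicate 2 and 3.12 in replicate 1. Nfatc4 had 1.01 TPM in replicate 2 and 1.14 in replicate 1, next to the detection threshold. By expected counts the shares of Nfatc1 and Nfatc3 came closer, at 44.6% and 34.5%. Part of Nfatc3 overlaps Esrp2 on the opposite strand, which had 7.26 TPM in replicate 2 and 7.83 in replicate 1. How strand was used is not given in the sources used here, so reads of the overlap cannot be told apart.

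Nfatc1 is known for having a pair of promoters and alternative 3′ ends. Transcripts from the downstream first exon (Nfatc1-201 and Nfatc1-203) held 68.9% of its TPM in replicate 2 and 72% in replicate 1, and those from the upstream first exon (Nfatc1-202 and Nfatc1-204) held 31.1% in replicate 2 and 28.0% in replicate 1. The downstream start thus had the larger share in both pups. Nfatc1-201 is the only quantified form with the short 3′ end, so reads of that end could count only as downstream. Among forms with the long 3′ end the order was the opposite. Nfatc1-202 had 8.09 TPM in replicate 2 and 7.31 in replicate 1, against 5.70 and 4.77 for Nfatc1-203. Their deposited bounds overlapped in replicate 2 and not in replicate 1. The short 3′ end, with a frame of 703 codons in Nfatc1-201, held 47.8% in replicate 2 and 53.8% in replicate 1, with the long end at 52.2% in replicate 2 and 46.2% in replicate 1. The order of the ends differed between the pups, so they could not be ranked. The long forms were Nfatc1-202, 29.0% ± 1.5 with 827 codons, and Nfatc1-203, 19.7% ± 2.06 with 925 codons.

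By TPM, most of Nfatc2 was assigned to transcripts without a reading frame. Its coding transcripts had 1.06 TPM in replicate 2 and 0.720 in replicate 1, or 31.5% ± 13.7 of its TPM. By expected counts the coding transcripts held 54.5% in replicate 2 and 32.3% in replicate 1, on both sides of 50%. The processed transcript Nfatc2-208 took 34.4% ± 6.47 and Nfatc2-206, annotated with a retained intron, 24.9% ± 8.89. The coding form Nfatc2-202 took 21.7% ± 0.537. The coding form Nfatc2-204 took 19.3% in replicate 2 and 0.01% in replicate 1, but its deposited bounds, 0.05 to 0.91 TPM in replicate 2 and 0 to 0.56 TPM in replicate 1, overlapped. With 410 expected counts for the gene in replicate 2 and 425 in replicate 1, the split between its forms was not resolved at this depth.

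Rcan1 (ENSMUSG00000022951.11; chromosome 16, 92391953 to 92470867, minus strand) binds calcineurin and limits its activity. It had 22.0 TPM in replicate 2 and 24.0 in replicate 1, a mean of 23.0 ± 1.47. Rcan3 had 12.5 TPM in replicate 2 and 16.9 in replicate 1, and Rcan2 0.720 TPM in replicate 2 and 0.540 in replicate 1. Rcan1 held 60.2% ± 3.06 of the family and was its highest gene in both pups.

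Rcan1 has alternative first exons with separate promoters, and the shorter form, from the downstream start, is known as a transcriptional target of NFAT. Rcan1-201 (downstream start, 198 codons) and Rcan1-202 (upstream start, 251 codons) share 507 coding bases and differ in the first coding exon. These exons are shown because they tell the forms apart; both are on the minus strand of GRCm38, at chr16:92399896-92399982 and chr16:92465833-92466078, and come from GENCODE M21.
Rcan1-201 first coding exon: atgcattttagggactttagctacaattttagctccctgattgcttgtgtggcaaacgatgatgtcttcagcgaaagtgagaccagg
Rcan1-202 first coding exon: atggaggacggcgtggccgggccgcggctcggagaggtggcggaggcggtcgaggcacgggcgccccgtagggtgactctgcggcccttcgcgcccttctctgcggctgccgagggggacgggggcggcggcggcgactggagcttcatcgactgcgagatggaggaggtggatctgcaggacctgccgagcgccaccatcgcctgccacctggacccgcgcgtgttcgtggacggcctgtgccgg
The downstream form had 13.5 TPM in replicate 2 and 15 in replicate 1, and the upstream form 8.48 TPM in replicate 2 and 9.03 in replicate 1. The downstream form took 61.9% ± 0.745 of the TPM and the upstream form 38.1% ± 0.745. In replicate 2 the deposited bounds were 11.1 to 14.8 TPM for the downstream form and 6.85 to 10.2 TPM for the upstream form, and they did not overlap there or in replicate 1.

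**Figure D4:**
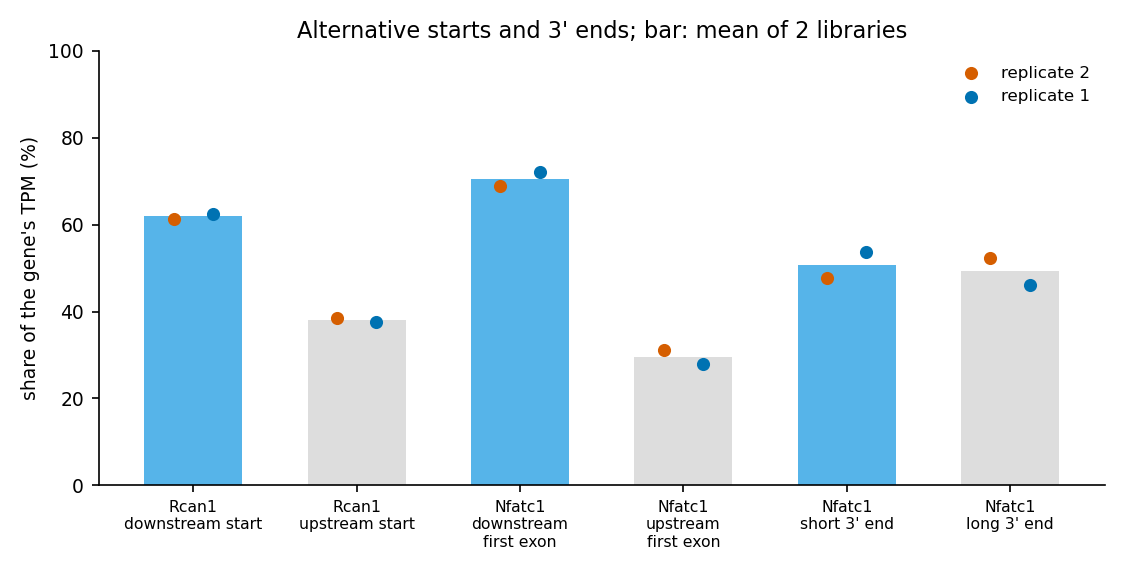
Share of gene TPM (%) by start for Rcan1 and by first exon and 3′ end for Nfatc1; bars are means over the 2 libraries, with replicate 2 in orange and replicate 1 in blue. The downstream start led for Rcan1 (61.9%) and for Nfatc1 (70.5%), while the 3′ ends of Nfatc1 changed order between the pups. For Nfatc1 the only quantified form with the short 3′ end begins at the downstream first exon.

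The letters before both Rcan1 starts were compared because their levels differ. The 250 bases before each RefSeq start (GRCm38.p6) lie at chr16:92400079-92400328 for the downstream and chr16:92466170-92466419 for the upstream start, on the minus strand; capitals mark GGAAA, the core that NFAT proteins bind, on either strand.
Rcan1 downstream promoter: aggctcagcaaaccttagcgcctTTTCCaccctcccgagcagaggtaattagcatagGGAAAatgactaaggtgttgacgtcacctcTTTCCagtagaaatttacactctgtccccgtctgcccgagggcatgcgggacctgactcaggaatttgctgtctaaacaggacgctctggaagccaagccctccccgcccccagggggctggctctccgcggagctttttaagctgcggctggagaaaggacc
Rcan1 upstream promoter: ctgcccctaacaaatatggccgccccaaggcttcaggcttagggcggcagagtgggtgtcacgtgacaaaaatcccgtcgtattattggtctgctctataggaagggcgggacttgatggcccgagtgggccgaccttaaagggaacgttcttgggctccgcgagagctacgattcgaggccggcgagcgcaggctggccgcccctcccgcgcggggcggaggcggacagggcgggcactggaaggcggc
GGAAA was found 3 times before the downstream start, 227, 193 and 163 bases from it, and 0 times before the upstream start. Of 32851 promoters of this length in the table, 55.6% held it at least once and 6.39% at least 3 times. TGANTCA, the core bound by AP-1, a usual partner of NFAT, was found once before the downstream start, 110 bases from it, and in 6.75% of promoters. TGACGTCA, the core bound by CREB, was found once there, 175 bases away, and in 1.55% of promoters; no overlap with GGAAA occurred. Neither was found before the upstream start, which held 24 CpG pairs, against 11 before the downstream start and a median of 6. TATAAA was in neither window and in 12.4% of promoters. These matches describe letters and show no binding.

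The 10 genes stand among 116 of the pathway, of which 95 were detected, against 32.2% of all 43346 genes. That share is the background for each list below. On the receptor side 6 of 6 were detected, led by Lat, the membrane adaptor, with 590 TPM in replicate 2 and 558 in replicate 1. Lcp2, an adaptor that works with Lat, averaged 105 ± 0.629 TPM. Of the IP3 and ryanodine receptors 3 of 6 were detected: Ryr1, Ryr2 and Ryr3, the release channels of muscle and nerve, had means of 0.07, 0.12 and 0.155 TPM. Of the modulators of store-operated entry 7 of 8 were detected, with Saraf, an inhibitor of STIM, at 200.1 ± 0.467 TPM, the septin Sept7 at 198 ± 5.05 TPM and the co-chaperone Stip1 at 138 ± 27.4 TPM.

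All 12 calmodulin and calmodulin kinase genes were detected. Of the genes of calmodulin, the calcium sensor of calcineurin, Calm2 averaged 772 ± 3.59 TPM and Calm3 164 ± 6.79 TPM, of which its coding transcripts held 80.8 ± 5.39 TPM. Of calcineurin inhibitors and scaffolds 7 of 9 were detected. Ppia, the cyclophilin through which ciclosporin acts on calcineurin, averaged 6688 ± 581 TPM, of which transcripts annotated as coding in M21 held 147 ± 8.22 TPM. Fkbp1a, the partner of tacrolimus, averaged 365 ± 24.9 TPM; the third of this list was Chp1 at 59.1 ± 0.290 TPM. Ppia has near-identical processed copies in the mouse genome, and how reads shared with them were assigned is not given in the sources used here.

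The kinases and factors that return NFAT to the cytoplasm or hold it there were detected in 11 of 13 cases. Csnk1a1, a casein kinase that phosphorylates NFAT, averaged 222 ± 11.5 TPM, Csnk1d 67.5 ± 4.47 TPM and Csnk1e 49.2 ± 10.0 TPM. Gsk3b averaged 34.5 ± 4.34 TPM and the noncoding RNA Nron, a repressor of NFAT import, 14.0 ± 0.269 TPM. Dyrk1a, a kinase that opposes NFAT and lies in the same human chromosome region as RCAN1, averaged 10.9 ± 2.52 TPM.

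Known targets of NFAT ranged widely, and 10 of 14 were detected. Cd5, which dampens receptor signalling, averaged 97.3 ± 5.40 TPM, the transcription factor Tox 46.8 ± 0.898 TPM and Nr4a1, an immediate early gene of receptor signalling, 21 ± 1.81 TPM. Egr2 averaged 8.04 ± 1.20 TPM. The cytokines Il2 and Ifng, made by activated T cells, averaged 0.645 and 0.575 TPM, and Egr3 0.370 TPM, all below the threshold. The fourth gene below it in at least 1 library was Fasl, with 0.940 TPM in replicate 2 and 1.14 in replicate 1.

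The pups were also compared gene by gene. Ratios are log2 of replicate 2 over replicate 1 from TMM-scaled expected counts, with exact 95% intervals that cover counting error only; they compare 2 libraries and no condition. None of the 10 genes was over 2-fold, against a background of 1.35% of 14155 genes with a mean count of at least 50. None was over 1.5-fold, against 4.75%. At backgrounds this low, finding none among 10 genes does not set them apart. The median size of the log2 ratio was 0.0996 for the 10 genes and 0.133 for the 14155. The 10 genes all had mean counts of at least 417.5, against 50 for the 14155, so the medians are not like for like. Of the 10 ratios, 7 were below 0, while 46.1% of those of the 14155 genes were.

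The interval excluded 0 for 4 of the 10 genes. How many of all genes had such an interval was not counted, so this number does not set the 10 genes apart. Itpr2 had a log2 ratio of -0.42 (-0.46 to -0.37), Itpr1 of -0.34 (-0.43 to -0.26) and Nfatc3 of -0.24 (-0.32 to -0.17), and Nfatc1 of 0.09 (0.02 to 0.16). The other 6 were between -0.12 for Nfatc2 and 0.11 for Itpr3, with intervals that included 0. The ERCC spike-ins had 427 counts in replicate 2 and 659 in replicate 1. Under scaling by them, the median of all genes with a mean count of at least 50 shifted from 0.02 to 0.71. All 10 ratios were then above 0, from 0.27 for Itpr2 to 0.80 for Itpr3. By point value, Itpr2, Itpr1 and Nfatc3 were lower in replicate 2 than in replicate 1 relative to other genes, and not on the spike-in scale. Their intervals leave out the spread between the libraries, estimated as a coefficient of variation of 11.7% over 17258 genes.

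Transcript length moved with these ratios. Genes with a mean count of at least 50 were placed in 10 bins by their longest transcript. The median log2 ratio was 0.08 in the bin of the shortest and -0.13 in the bin of the longest. That last bin, at 6332 nt or more, held Itpr1, Itpr2, Itpr3 and Nfatc2. With the median of each bin subtracted, Itpr2 was at -0.29, Itpr1 at -0.21, Nfatc3 at -0.22 and Itpr3 at 0.24, so the IP3 receptors still lay on both sides of 0. Itpr2 was placed by its full-length form of 11699 nt, although its short forms held 47.9% of its expected counts. The part of length in its difference was not tested. Markers of other cells differed as well: the 5 mesenchyme markers summed to 312 TPM in replicate 2 and 273 in replicate 1, and the 4 red cell markers to 2490 TPM in replicate 2 and 2750 in replicate 1. Among the epithelium markers, whose sums were nearly level, Foxn1 and Psmb11 differed. Foxn1 had 27.4 TPM in replicate 2 and 18.4 in replicate 1, and Psmb11 97.0 TPM in replicate 2 and 67.7 in replicate 1. No marker of these 3 lists was at 0, and their part in the ratios was not tested.

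Within Itpr2 the difference between the pups was larger for the short forms. Their log2 ratio was -0.62 (-0.69 to -0.56), from 3384 counts in replicate 2 and 4981 in replicate 1, and that of the full-length coding forms was -0.22 (-0.28 to -0.16), from 4226 in replicate 2 and 4717 in replicate 1. The intervals did not overlap, but they leave out the error of dividing reads between forms. Within Nfatc1 the long 3′ end had a ratio of 0.27 (0.17 to 0.36) and the short end one of -0.09 (-0.18 to 0.01). Within Nfatc2 the ratio was 0.64 (0.33 to 0.96) for the coding transcripts, from 224 counts in replicate 2 and 137 in replicate 1, and -0.69 (-0.97 to -0.42) for the others, from 186 in replicate 2 and 288 in replicate 1. These counts rest on the division between forms that was not resolved above.

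**Figure D5:**
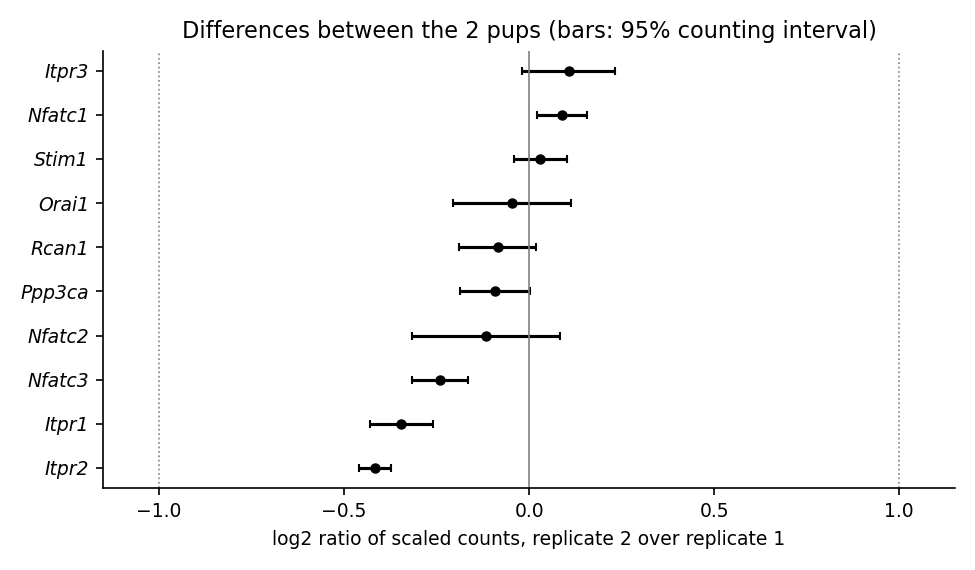
Log2 ratio of TMM-scaled expected counts, replicate 2 over replicate 1, for the 10 genes; bars are exact 95% counting intervals and dotted lines mark 2-fold. All 10 genes lie within 2-fold, with Itpr2 lowest at -0.42 and Itpr3 highest at 0.11.

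Among the other 106 genes of the pathway, 85 were detected, against 32.2% of all 43346 genes. Of the 90 with a mean count of at least 50, 1 passed 2-fold, near the background of 1.35% of 14155 genes. This was the voltage-gated channel gene Cacna1d, lower in replicate 2 with 73.7 counts than in replicate 1 with 145, and below the detection threshold in both. Of the paralogues, Nfat5 differed most, with a log2 ratio of -0.75 from 904 counts in replicate 2 and 1457 in replicate 1.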

How the data were processed

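The 2 libraries were made from 10 ng of total RNA each, with spike-ins, per the labels' protocols. The authors deposited a gene and a transcript table per library, on mm10 per the labels and annotation M4 per the read-me texts. Which aligner and quantifier were used, and whether strand was, is not given in the sources used here. Expected counts were deposited without normalization. TPM and FPKM were deposited per transcript length and library. The percent of a gene's TPM in each transcript was deposited by the authors, as were bounds on TPM, whose level is not stated. Symbols, coordinates and transcript types came from GENCODE M21 and promoters from RefSeq. Of the 10 genes, 7 were in the promoter table. Annotation M4 holds 1 transcript each of Itpr1, Itpr3, Nfatc3 and Stim1, for which M21 lists 13, 2, 7 and 9. It holds 4 transcripts of Nfatc1 and 2 of Rcan1, for which M21 lists 7 each, so their shares by start cover only the forms it holds.

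Library sizes were scaled with edgeR 4.0.16 (TMM; R 4.3.3) on expected counts, with a prior count of 0.5, and DESeq2 1.42.0 size factors, spike-in totals, TPM and a prior of 5 were alternatives, as were other detection thresholds, FPKM, coding transcripts alone, expected counts in place of TPM, and each library alone. Removal of the length trend, in 10 bins of genes by longest annotated transcript, was chosen after seeing the data. Intervals are exact Clopper-Pearson intervals on the share of counts in replicate 2. Because PCR reads without molecular identifiers cannot be taken as independent molecules, intervals and floors cover counting error only. Over 17258 genes a chi-square statistic was 19.5 times its degrees of freedom, so the libraries differ by more than counting of independent reads would give. Since the reads cannot be taken as independent, this does not separate differences between the pups from noise of library making. The steps were tested on simulated data. Tables were handled in Python 3.11.15 with pandas 2.3.3 and numpy 2.4.6, intervals came from scipy 1.17.1, and figures from matplotlib 3.10.9.

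The 10 genes and the lists were chosen with earlier results of these data known. The text names all 10 genes, every paralogue, the 3 highest genes of each list and other listed genes, and each transcript with a mean share of at least 10%. Some listed genes that this rule would name are not reported here.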

Additional observations from a re-analysis of the deposited data

How the results depend on the processing

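Of 126 alternative values for 55 results, 84 were classed as unchanged, 39 as moved and 3 as reversed. Levels, shares and ratios were classed by the spread or interval of the reported value. Counts and medians have neither, and the unchanged ones include 8 of the 10 genes detected at 5 TPM. The reversed values were the log2 ratios whose interval lay below 0. With spike-in totals they were 0.27 for Itpr2, 0.35 for Itpr1 and 0.45 for Nfatc3. Other ratios that changed sign had intervals that included 0 and were classed as moved or unchanged. Another 64 values came from 1 library alone; with 2 libraries such a value cannot leave the SD, so they say nothing of stability. The median size of the log2 ratio of the 10 genes was 0.602 with spike-in totals. All 10 genes stayed detected at 0.5 TPM, by FPKM and in each library alone, and 8 of them at 5 TPM; of the 116 pathway genes, 78 to 100 were detected over these alternatives. None of the 10 genes passed 2-fold under any scaling, prior count or filter tried, or with the length trend removed. The share of a gene in its family or of a transcript in its gene depends on the unit: by expected counts Itpr2 held 72.3% of its family and Orai1 11.3%. The share of Stim1 in the STIM family could not be given on coding transcripts alone, because transcripts with a type in M21 held 7.39% of the TPM of Stim2. Shares by first exon could not be given for Itpr1, for which the tables hold 1 transcript. No paired analysis was possible because there is 1 group. At this depth the split of Nfatc2, with 410 counts in replicate 2 and 425 in replicate 1, was not resolved.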

Other observations

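Calcium handling outside the path from receptor to NFAT was also measured. All 8 genes of mitochondrial calcium uptake were detected: Smdt1, the small subunit that holds the uniporter together, averaged 263 ± 1.80 TPM, the outer membrane channel Vdac1 188 ± 4.58 TPM and the gatekeeper Micu2 54.0 ± 3.83 TPM, while the pore Mcu averaged 23.1 ± 1.51 TPM (SD, n = 2 each). Of pumps and exchangers 7 of 10 were detected, led by Atp2a3, the reticulum pump of blood cells, with 91.9 TPM in replicate 2 and 84.2 in replicate 1. Atp2c1, the pump of the Golgi, averaged 27.2 ± 4.78 TPM and Atp2a2, the widely expressed reticulum pump, 21.4 ± 1.55 TPM. Of other calcium and potassium channels 10 of 15 were detected. Kcnn4, the calcium-activated potassium channel of lymphocytes, averaged 81.3 ± 5.88 TPM, the ATP-gated channel P2rx1 54.9 ± 5.56 TPM, of which coding transcripts held 2.06 ± 0.177 TPM, and Trpv2 41.1 ± 1.83 TPM.

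Atp2a1, the reticulum pump of fast skeletal muscle, had 3.50 TPM in replicate 2 and 2.77 in replicate 1. Skeletal muscle markers, 3 of 5 detected and none at 0, summed to 27.8 TPM in replicate 2 and 19.3 in replicate 1. Smooth muscle markers, 3 of 4 detected and none at 0, summed to 51.2 TPM in replicate 2 and 32.6 in replicate 1. The part of muscle RNA in the level of Atp2a1 was not tested.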
